A study of Mus musculus with 18 samples.

Results

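The addition of the dioxin TCDD to an adipogenic mix was followed in 5 of the 18 arrays of a study of C3H10T1/2 cells, an established mouse embryo fibroblast line that can be turned into adipocytes. The arrays were chosen by their titles: 2 arrays of cells given the mix and TCDD (IDMB+TCDD) were set against 3 arrays of cells given the mix alone (IDMB), with no EGF on either side. TCDD was used at 10 nM and had been on the cells for 72 h when they were collected, so it preceded the mix, which had been on them for 24 h. The mix held 1 µM BRL49653, 1 µM dexamethasone, 10 µg/mL insulin and IBMX, whose dose is labelled as 0.5 µM. All cells were collected 72 h after serum was last given and 24 h after they became confluent, and the mRNA of 6 cultures was pooled for each array. For comparison, 2 arrays of cells given TCDD for the same time (TCDD) were set against 3 arrays labelled UT, read here as given none of TCDD, EGF and the mix. A further 2 arrays with the mix, TCDD and 10 nM EGF for 24 h (IDMB+EGF+TCDD) were set against 2 arrays with the mix and EGF (IDMB+EGF). Nothing in the labels says that the arrays of a group came from cultures grown on different days, so the p-values measure the spread between pools, part of which may be technical.

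TCDD binds the aryl hydrocarbon receptor (AhR), a ligand-activated transcription factor that moves to the nucleus, pairs with ARNT and raises the transcription of detoxifying enzymes. In fibroblasts that are about to become adipocytes, glucocorticoid, cAMP and insulin signals induce C/EBP beta and delta, which raise PPARG and C/EBP alpha. PPARG, the receptor that BRL49653 (rosiglitazone) activates, then raises genes of lipid uptake, lipid storage and lipolysis. TCDD is known as an inhibitor of this program in cultured fibroblasts.

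Of 7134 probes tested, 470 (6.59%) were called, of which 218 (3.06%) were higher and 252 (3.53%) were lower in IDMB+TCDD than in IDMB at an adjusted p under 0.05 (limma with Benjamini-Hochberg adjustment, n = 2 against 3). They stand for 192 genes that rose and 216 that fell. The arrays of the 2 groups did not overlap for 37.4% of all probes tested, so a lack of overlap alone is common here. The median log2 difference over all tested probes was -0.01. The count of probes called depended on single arrays: it was 151 without the second IDMB+TCDD array, 195 without the first and 277 without the second IDMB array. The ratio of 3′ to 5′ Gapdh control signal, a measure of RNA and labelling quality, was 1.05 and 1.09 with TCDD in the mix and 1.19 to 1.73 with the mix alone, with no overlap. With that ratio as a covariate 267 probes were called, of which 240 were among the 470. Of 91 genes named below and called, 29 were not called with it: Tiparp, Adh1, Adipoq, Fabp5, Elovl6, Ccnd2, Ccl17, Lamb1, Lamb2, Nid1, Fbn2, Timp2, Gclc, Gsto1, Igf2, Igfbp3, Twist2, Mcl1, Pdia6, Thy1, Tmem176b, Ccn3, Ogn, Clec3b, Cacna1g, St6galnac6, Lifr, Gja1 and Slc20a1. With the arrays of these groups alone, 40 of the 91 were not called. The actin ratio overlapped, at 1.98 to 2.07 on IDMB+TCDD arrays and 1.80 to 2.25 on IDMB arrays. Dim values were raised to a floor of 143.5, below which lay 20% of the intensities. Of the 11 fibroblast and mesenchymal markers on the array, 10 or 11 were above the floor on every array of both groups, and their summed intensity was 299203 to 316096 with TCDD and 253932 to 286649 without it. In bulk RNA, fewer cells of a type and less RNA per cell cannot be told apart, and this holds for each gene below.

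Several targets of AhR rose when TCDD was in the mix. Of the 7 AhR target enzymes tested, out of 11 on the array, 4 rose and none fell, with a median log2 difference of 1.15, where 3.06% of all probes rose and 3.53% fell. Aldh3a1, an aldehyde dehydrogenase and a classical AhR target, stood at 25607 and 22060.2 on the IDMB+TCDD arrays, against 1091, 1308 and 1069 on the IDMB arrays. The groups lay far apart, and the log2 difference was 4.37 (SE 0.33, adjusted p = 2.22e-06), a rise of 20.6-fold. A second Aldh3a1 probe rose by less, at a log2 difference of 2.70 (adjusted p = 0.00114). Cyp1b1, a cytochrome P450 that oxidises hydrocarbons and steroids, had 129915 and 122464 with TCDD, against 57469.7, 57694 and 46908 without it, a log2 difference of 1.23 (SE 0.185, adjusted p = 0.000895). Its groups did not overlap, and its signal was already high without TCDD. Nqo1, a quinone reductase that both AhR and NRF2 control, had 10203 and 10416 with TCDD, against 3623, 2189 and 3809.6 without it, a log2 difference of 1.73 (SE 0.229, adjusted p = 0.000375). Both of its tested probes rose, and all 3 calls held in each fit with 1 array left out.

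Tiparp, a poly-ADP-ribose polymerase that AhR induces and that in turn represses AhR, rose less clearly. Its intensities were 8196 and 9225 on the IDMB+TCDD arrays, against 2764, 5376 and 4041 on the IDMB arrays, which did not overlap, and the log2 difference was 1.15 (SE 0.326, adjusted p = 0.0456). This call was lost when any array but the second IDMB array was left out (adjusted p up to 0.225). Cyp1a1, the best known AhR target, was close to background, at 694 and 349 on the IDMB+TCDD arrays, against 266, 260.2 and 358 on the IDMB arrays. Its groups overlapped, and its log2 difference of 0.75 (SE 0.6, adjusted p = 0.503) did not pass the test. Xdh, xanthine dehydrogenase, had a log2 difference of -0.55 (SE 0.347, adjusted p = 0.381) in the mix and 1.21 (SE 0.347, adjusted p = 0.0444) in TCDD against UT. Single calls in TCDD against UT, here and below, were not refitted with arrays left out. The last member, the glutathione transferase Gsta2, had 177 and the floor with TCDD, against 673, 1368 and 317 without it and a log2 difference of -2.06 (SE 0.811, adjusted p = 0.141), short of the test.

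In a list of the receptor and genes that act with or on it, 2 of 5 rose, where 3.06% of all probes did. They were Arnt, the partner of AhR, and Tiparp, which is already counted among the target enzymes above. Arnt had 1751 and 1649.7 with TCDD, against 1017, 494 and 730.1 without it, a log2 difference of 1.25 (SE 0.308, adjusted p = 0.023), a call that was lost without either IDMB+TCDD array or the second IDMB array (adjusted p up to 0.146). The receptor gene Ahr itself had 1704 and 1531 with TCDD, against 1302, 889 and 1464 without it and did not pass the test at a log2 difference of 0.44 (SE 0.303, adjusted p = 0.431). In TCDD against UT, Ahr stood at 2876 and 1817 on the TCDD arrays, against 3332, 4642 and 7503 on the UT arrays, a log2 difference of -1.09 (SE 0.303, adjusted p = 0.0375). That comparison had 548 calls, and 36 with the Gapdh ratio as a covariate, and the stability of this single call was not tested. The 2 alcohol dehydrogenases Adh7 and Adh1, which oxidise retinol and other alcohols, were also among the 15 genes with the largest rise. Adh7 had 16369 and 10868 with TCDD, against 1725, 3769 and 1843 without it, a log2 difference of 2.54 (SE 0.307, adjusted p = 0.000203). For Adh1 the intensities were 1834 and 1812 with TCDD, against 502, 296 and 434 without it, a log2 difference of 2.18 (SE 0.479, adjusted p = 0.0117) that did not pass without either IDMB+TCDD array (adjusted p up to 0.0908).

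The promoter windows of 5 of these genes are shown because the AhR and ARNT pair binds DNA through the core letters GCGTG, and because the genes moved by unequal amounts. Each window runs from 250 bases before to 50 bases after the gene's start in RefSeq (GRCm38.p6), 5′ to 3′ on the gene's strand, with every GCGTG or its reverse complement CACGC in capitals. Tiparp lies at chr3:65528197-65528496 on the plus strand, Cyp1b1 at chr17:79715012-79715311 on the minus strand, Adh7 at chr3:138217523-138217822 on the plus strand, Cyp1a1 at chr9:57697363-57697662 on the plus strand and Nqo1 at chr8:107403156-107403455 on the minus strand.
Tiparp: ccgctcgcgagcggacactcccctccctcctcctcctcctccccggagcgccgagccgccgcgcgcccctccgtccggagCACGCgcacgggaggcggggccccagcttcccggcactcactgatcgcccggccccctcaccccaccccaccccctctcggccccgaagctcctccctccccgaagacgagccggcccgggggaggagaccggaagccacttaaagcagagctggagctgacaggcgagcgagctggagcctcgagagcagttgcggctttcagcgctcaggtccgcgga
Cyp1b1: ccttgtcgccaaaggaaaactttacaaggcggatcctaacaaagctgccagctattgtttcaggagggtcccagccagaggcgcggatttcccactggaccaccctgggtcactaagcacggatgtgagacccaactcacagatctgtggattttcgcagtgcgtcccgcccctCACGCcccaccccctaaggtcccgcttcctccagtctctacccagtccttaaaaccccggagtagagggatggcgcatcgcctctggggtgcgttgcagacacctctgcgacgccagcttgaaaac
Adh7: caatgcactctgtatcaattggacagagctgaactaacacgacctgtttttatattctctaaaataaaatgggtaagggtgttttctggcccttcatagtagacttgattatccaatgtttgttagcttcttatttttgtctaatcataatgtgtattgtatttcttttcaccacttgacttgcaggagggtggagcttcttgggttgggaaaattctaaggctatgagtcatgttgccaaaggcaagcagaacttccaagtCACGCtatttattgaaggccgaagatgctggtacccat
Cyp1a1: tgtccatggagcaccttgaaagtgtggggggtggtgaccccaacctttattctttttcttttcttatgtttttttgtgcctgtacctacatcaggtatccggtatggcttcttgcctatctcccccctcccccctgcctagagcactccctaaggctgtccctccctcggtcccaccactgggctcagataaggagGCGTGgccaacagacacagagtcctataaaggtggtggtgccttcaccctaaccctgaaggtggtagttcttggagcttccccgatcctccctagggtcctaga
Nqo1: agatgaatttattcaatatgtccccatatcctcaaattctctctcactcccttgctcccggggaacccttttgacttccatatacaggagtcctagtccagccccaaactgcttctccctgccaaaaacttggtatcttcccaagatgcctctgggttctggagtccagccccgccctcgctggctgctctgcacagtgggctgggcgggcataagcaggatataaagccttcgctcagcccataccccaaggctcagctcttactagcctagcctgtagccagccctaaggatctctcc
The core stood once in the windows of Tiparp, Cyp1b1, Adh7 and Cyp1a1 and was not found in that of Nqo1. It is short, and 32.4% of all 32851 RefSeq promoter windows hold it on one strand or the other. The longer form TNGCGTG, of which the core is a part, is in 5.07% of windows and was found in that of Adh7 alone among these 5. Cyp1a1 and Cyp1b1 each hold 1 core here, and only Cyp1b1 passed the test. These letters describe a 300-base window and leave out any more distant element.

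Genes that coat, fill and empty lipid droplets were among those that fell. In the list of lipid droplet and adipocyte genes, 8 of 21 tested members, out of 28 on the array, fell and none rose, where 3.53% and 3.06% of all probes did. A probe was tested if its highest group mean reached the cut. A dim gene that the mix raises could thus enter through arrays with the mix, which favours falls over rises in this count. The median log2 difference was -1.06, beside -0.01 over all probes. Plin2, the perilipin that coats small lipid droplets in most cells, stood at 18009.9 and 21073 on the IDMB+TCDD arrays, against 61174, 90973 and 81397 on the IDMB arrays. The ranges lay well apart, with a log2 difference of -1.98 (SE 0.221, adjusted p = 0.000129), or 3.94-fold lower. Pnpla2, the lipase that starts the breakdown of stored triglyceride, had 5496 and 6532 with TCDD, against 24279.9, 23943 and 20749 without it, a log2 difference of -1.94 (SE 0.189, adjusted p = 3.56e-05). Abhd5, the protein that activates this lipase, had 6416 and 7091 with TCDD, against 21759.9, 16013 and 15634 without it, a log2 difference of -1.38 (SE 0.254, adjusted p = 0.0038). The coat, the lipase and its activator fell together, and these 3 calls held in each fit with 1 array left out.

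Plin4, a perilipin of adipocytes and muscle, was at or near the floor with TCDD. Its intensities were the floor and 347 on the IDMB+TCDD arrays, against 4978, 2962 and 3434 on the IDMB arrays, and the log2 difference was -4.05 (SE 0.61, adjusted p = 0.000895). The estimate was -3.42 without the first IDMB+TCDD array and -4.69 without the second, past the test both times. Lpl, lipoprotein lipase, which takes up fatty acids from lipoproteins, was at the floor on both IDMB+TCDD arrays, against 2028, 1955 and 1437 on the IDMB arrays. It was at least 12.4-fold lower with TCDD (log2 -3.64, SE 0.721, adjusted p = 0.00585), a call that was narrowly missed without the second IDMB+TCDD array (adjusted p = 0.0567). A second Lpl probe had a log2 difference of -2.24 and did not pass (adjusted p = 0.0798).

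Ephx2, the soluble epoxide hydrolase, had 484 and 558 with TCDD, against 3825, 7698 and 3786 without it, a log2 difference of -3.21 (SE 0.496, adjusted p = 0.00108). Adipoq, the adipokine adiponectin, had 361 and 307 with TCDD, against 1589.5, 1593 and 1378 without it, low values that did not overlap, and a log2 difference of -2.19 (SE 0.506, adjusted p = 0.0159). Fabp5, a fatty acid binding protein, had 2626 and 2079 with TCDD, against 3493, 6814 and 5228 without it and a log2 difference of -1.10 (SE 0.306, adjusted p = 0.0426). The calls of Adipoq and Fabp5 were lost without either IDMB+TCDD array or the second IDMB array, and that of Fabp5 also without the third IDMB array (adjusted p up to 0.118 for Adipoq and 0.257 for Fabp5). Fabp4, the adipocyte fatty acid binding protein, did not pass, at 766 and 959 with TCDD, against 1994, 1193 and 1124 without it and a log2 difference of -0.70 (SE 0.367, adjusted p = 0.282). Dgat1, which makes triglyceride, had 4089.6 and 4639 with TCDD, against 4918, 11668 and 13408 without it and a log2 difference of -1.07 (SE 0.359, adjusted p = 0.0857), also short of the test. Over the list as a whole, 18 of 21 members had a log2 difference below 0. Of the 6 adipocyte markers on the array, Lpl, Cidec and Retn were at the floor on both IDMB+TCDD arrays whereas each was above it on 1 or more IDMB arrays, and their summed intensity was 3007 to 4340 with TCDD and 6265 to 8292 without it.

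The response to the mix itself is set beside these values. In IDMB against UT 12 of the 21 list members were called higher and 2 lower, where 6.66% and 7.42% of all probes were. That comparison shares the IDMB arrays with the one described here, so the values are given only side by side. The log2 difference of IDMB minus UT was 3.10 for Pnpla2, 3.49 for Abhd5, 2.35 for Plin2, 4.39 for Ephx2, 1.94 for Plin4, 2.37 for Adipoq, 1.70 for Lpl and 0.26 for Fabp5. With TCDD in the mix, Plin2 had the IDMB+TCDD intensities given above, against 10551, 19133 and 16950.3 on the UT arrays. Those of Pnpla2 were likewise set against 2729, 2429 and 2884 on the UT arrays, so both genes stood above or near their UT level, a difference that was not tested.

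Of 16 adipogenic transcription factors tested, 2 fell and none rose, where 3.53% and 3.06% of all probes did. Their median log2 difference was -0.02. Klf5, a zinc finger factor that acts early in adipogenesis, had 229.8 and 453 on the IDMB+TCDD arrays, against 1502, 2053 and 1259.8 on the IDMB arrays. Its groups did not overlap and its log2 difference was -2.28 (SE 0.54, adjusted p = 0.0176), lost without the first IDMB+TCDD array or the second IDMB array (adjusted p up to 0.184). Srebf1, the regulator of fatty acid synthesis genes, had 9258 and 7469.6 with TCDD, against 12368, 13161 and 13829.7 without it, a log2 difference of -0.66 (SE 0.14, adjusted p = 0.00959), lost without the second IDMB+TCDD array (adjusted p = 0.155). Pparg missed the threshold. It stood at 1237 and 1168 on the IDMB+TCDD arrays, against 4099.5, 2624 and 2273 on the IDMB arrays, with no overlap and a log2 difference of -1.27 (SE 0.383, adjusted p = 0.0584). The early C/EBP factors, which the mix induces, were not lower on the IDMB+TCDD arrays: Cebpb had 64098 and 55393 with TCDD, against 35851, 40164 and 44770.0 without it and a log2 difference of 0.57 (SE 0.183, adjusted p = 0.0735). Cebpd had 76588 and 81023 with TCDD, against 74879, 67056 and 67819.6 without it and a log2 difference of 0.17 (SE 0.182, adjusted p = 0.634). Cebpa had 8289.8 and 11099 with TCDD, against 6079, 12415 and 16147 without it, and its groups overlapped, with a log2 difference of -0.16 (SE 0.443, adjusted p = 0.884) whose sign changed under some settings.

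In fatty acid synthesis 1 of 11 tested genes rose and 1 fell, where 3.06% and 3.53% of all probes did. Gpam, the acyltransferase that starts glycerolipid synthesis in mitochondria, had 4422 and 5349 on the IDMB+TCDD arrays, against 12913, 19067 and 13633 on the IDMB arrays, a log2 difference of -1.62 (SE 0.209, adjusted p = 0.000286). Elovl6, an elongase of saturated fatty acids, had 6184 and 7681 with TCDD, against 1854, 1379 and 4431 without it, a log2 difference of 1.62 (SE 0.4, adjusted p = 0.023) that was lost without any array but the third IDMB array (adjusted p up to 0.169). A second Elovl6 probe did not pass, at 0.80 (adjusted p = 0.118). No member passed the test among 21 genes of fatty acid oxidation, 13 of cholesterol synthesis, 20 glucocorticoid responsive genes and 8 cAMP responsive genes. Their median log2 differences were -0.21, -0.08, -0.08 and -0.06. For scale, 16 of the 20 glucocorticoid responsive genes were called higher in IDMB against UT, where 6.66% of all probes were. The lists of replication genes (34 members) and of G2 and mitosis genes (33 members) also held no called gene, with medians of 0.13 and 0.37. Of 13 D cyclins, CDK inhibitors and related genes tested, 1 fell and none rose, where 3.53% and 3.06% of all probes did. Ccnd2, a D cyclin, was at the floor on both IDMB+TCDD arrays, against 1562, 1006 and 447 on the IDMB arrays, and was at least 6.19-fold lower (log2 -2.63, SE 0.632, adjusted p = 0.0199), a call lost without any array but the third IDMB array (adjusted p up to 0.114) or with the floor at the 40th percentile (-0.89, adjusted p = 0.356).

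**Figure D1:**
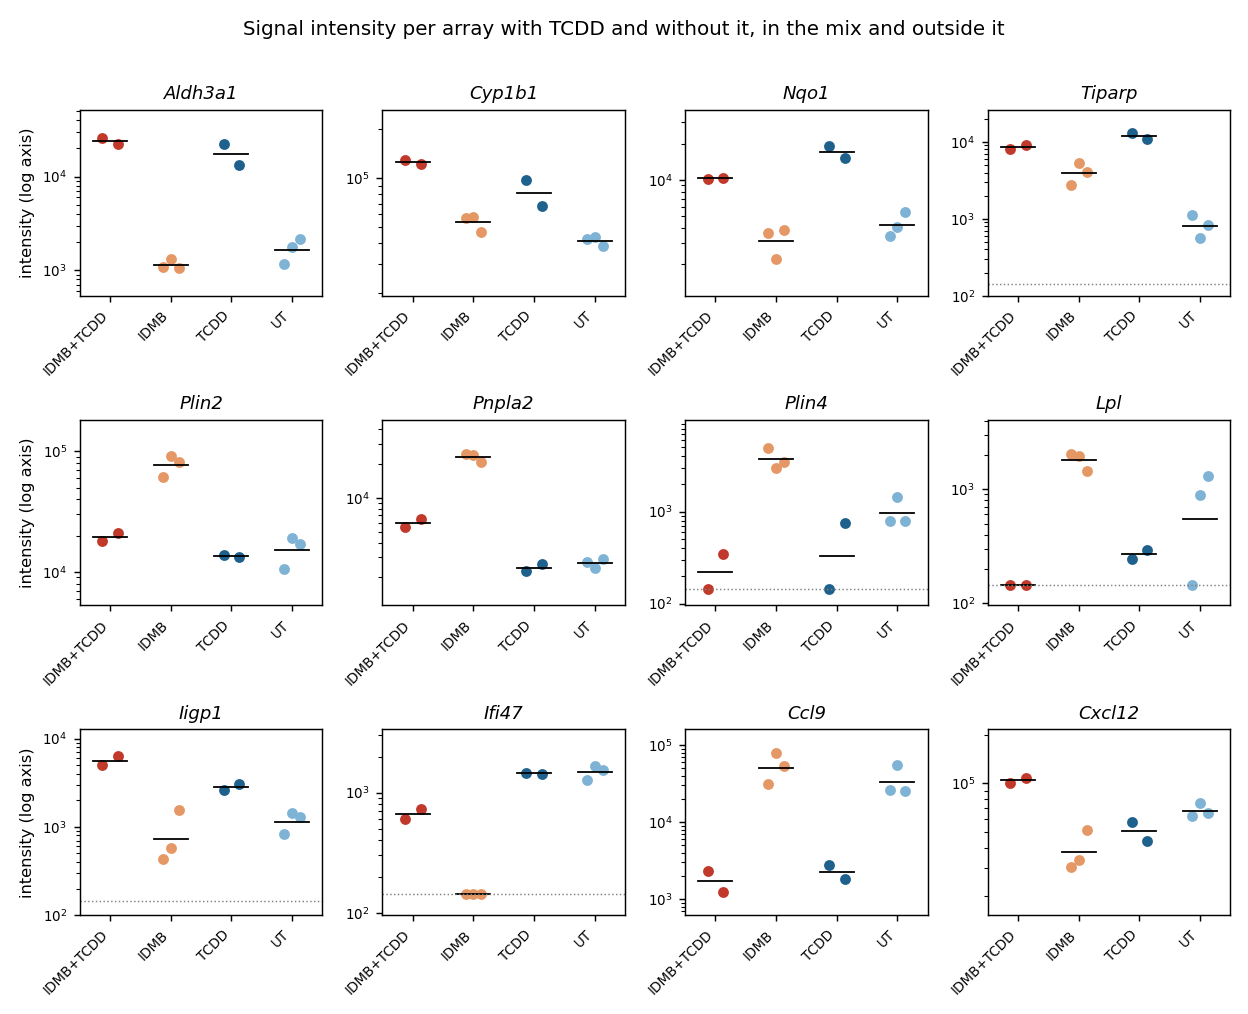
Signal intensity on a log axis for 12 genes, 1 point per array and a line at the mean of the log2 values, in IDMB+TCDD (2 arrays), IDMB (3), TCDD (2) and UT (3). The dotted line is the floor of 143.5. In the top row the arrays with TCDD lie above those without it, in the mix and outside it, and in the middle row the IDMB+TCDD arrays lie below the IDMB arrays for all 4 lipid genes.

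**Figure D2:**
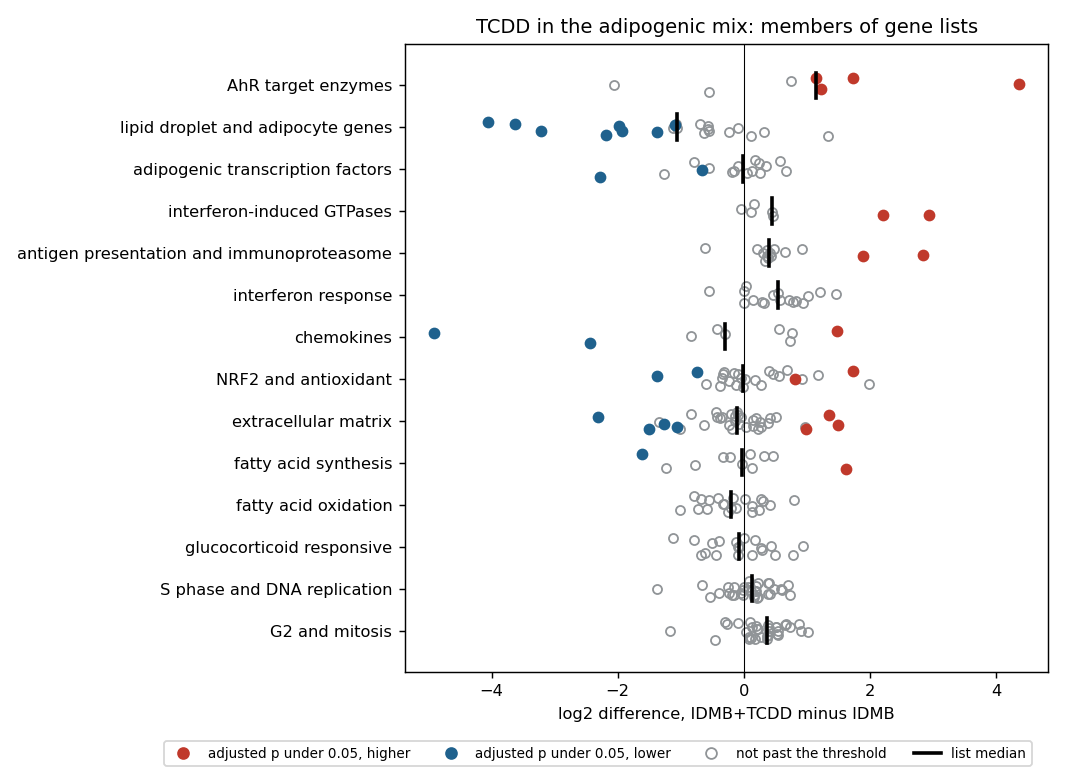
Log2 difference of IDMB+TCDD minus IDMB for each tested member of 14 gene lists, 1 point per gene, with filled points past an adjusted p of 0.05 and a bar at the list median. All 8 called members of the lipid droplet list lie below 0 and all 4 called AhR target enzymes lie above it, while the oxidation, glucocorticoid and cell cycle lists hold open points alone.

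Single genes that interferons induce rose. Of 7 interferon-induced GTPases, 2 rose, where 3.06% of all probes did, and the list median was 0.44. Iigp1, a GTPase that attacks the vacuoles of intracellular parasites, had 4968 and 6355 on the IDMB+TCDD arrays, against 429, 583 and 1563 on the IDMB arrays. The log2 difference was 2.94 (SE 0.416, adjusted p = 0.00054), and a second probe rose by as much, at 3.03. Ifi47, a GTPase of the same family, had 602 and 729 on the IDMB+TCDD arrays and was at the floor on the 3 IDMB arrays. It was thus at least 4.62-fold higher with TCDD (log2 2.21, SE 0.347, adjusted p = 0.00118). With the floor at the 40th percentile the log2 difference was 0.42 and did not pass (adjusted p = 0.319). The IDMB+TCDD intensities of Ifi47 lay below those on the UT arrays, which were 1285, 1679.5 and 1545. The other 5 GTPases, Gbp2, Gbp3, Gbp7, Irgm1 and Irgm2, had log2 differences of 0.44, 0.16, -0.04, 0.11 and 0.47, and none passed.

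In antigen presentation 2 of 14 tested genes rose and none fell, where 3.06% and 3.53% of all probes did. Tapbp, the tapasin that loads peptides on class I molecules, had 11027 and 12661 with TCDD, against 2832, 2497 and 4522 without it, a log2 difference of 1.90 (SE 0.212, adjusted p = 0.000129). A second Tapbp probe rose by 1.41, and another did not pass, at 0.39. Psmb9, a subunit of the immunoproteasome, had 1378 and 923 with TCDD, against the floor, 162 and 166 without it, a log2 difference of 2.84 (SE 0.645, adjusted p = 0.0143), lost without either IDMB+TCDD array (adjusted p up to 0.13). Among 17 further genes of the interferon response none passed the test, although 16 had a log2 difference above 0 and the median was 0.54. The letters of the 2 elements through which interferons act, TTCNNNGAA for GAS and GAAANNGAAA for ISRE, were searched on both strands of the promoter windows of Ifi47, Tapbp and Psmb9 and were not found, and 8.3% and 3.44% of all windows hold them.

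Of 10 inflammatory signalling genes, 2 rose, where 3.06% of all probes did. Vcam1, an adhesion molecule for leukocytes, had 9610.3 and 10039.8 with TCDD, against 2137, 2348 and 3362 without it, a log2 difference of 1.94 (SE 0.242, adjusted p = 0.000241). The other 2 Vcam1 probes did not pass, at log2 differences of -0.36 and 0.26, so the rise rests on 1 probe. Il6st, the receptor chain that interleukin 6 and related cytokines share, had 27415 and 32204 with TCDD, against 13536, 14962 and 20062 without it, a log2 difference of 0.90 (SE 0.166, adjusted p = 0.00397), lost without the second IDMB+TCDD array (adjusted p = 0.0762). Macrophage markers were read beside these genes. Of the 13 on the array, Lyz2, Tyrobp and Aif1 were at the floor on both IDMB+TCDD arrays, and Ptprc, Itgam and Aif1 were at the floor on the 3 IDMB arrays. The summed intensity of the list was 9242 to 9595 with TCDD and 7003 to 8667 without it. Cd14, which fibroblasts also express, rose by a log2 difference of 0.76 (SE 0.156, adjusted p = 0.00784), lost without either IDMB+TCDD array (adjusted p up to 0.0739). The part of such cells in the immune genes was not tested.

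Of 9 chemokines tested, 1 rose and 2 fell, where 3.06% and 3.53% of all probes did. Ccl9, a chemokine that attracts myeloid cells, had 2339 and 1238 on the IDMB+TCDD arrays, against 31144, 79990.4 and 53971 on the IDMB arrays. It showed the largest fall of the genes named here, with a log2 difference of -4.91 (SE 0.43, adjusted p = 9.7e-06), or 30.1-fold lower. Ccl17, a chemokine for T cells, had 291 and 190.1 with TCDD, against 971, 1777 and 1211 without it, a log2 difference of -2.44 (SE 0.558, adjusted p = 0.0151), lost without either IDMB+TCDD array or the second IDMB array (adjusted p up to 0.133). Cxcl12, a chemokine that fibroblasts secrete to retain haematopoietic cells, rose. It stood at 101119 and 108060.0 on the IDMB+TCDD arrays, against 30474, 33713 and 51478 on the IDMB arrays, with a log2 difference of 1.48 (SE 0.209, adjusted p = 0.00054), and its 2 other probes rose by 0.93 and 2.37. Ackr3, a receptor that takes up and degrades CXCL12, had 7674 and 8712 with TCDD, against 2279, 2861 and 3653 without it, a log2 difference of 1.51 (SE 0.234, adjusted p = 0.0011). The chemokine and its scavenger receptor were both higher on every IDMB+TCDD array. The other 6 chemokines, Ccl2, Ccl7, Ccl22, Cx3cl1, Cxcl1 and Cxcl5, had log2 differences between -0.84 for Ccl7 and 0.77 for Cxcl5, and none passed.

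Some contractile genes fell. Of 10 smooth muscle and contractile markers tested, 3 fell and none rose, where 3.53% and 3.06% of all probes did. The summed intensity of the 13 on the array was 53785 to 71527 with TCDD and 74456 to 83020 without it. Acta2, smooth muscle actin, had 2739 and 3929 with TCDD, against 14034, 9113 and 11129 without it, a log2 difference of -1.78 (SE 0.195, adjusted p = 0.000129). Cnn2, a calponin that binds actin filaments, had 2076 and 3516 with TCDD, against 9193, 5279 and 6774 without it, a log2 difference of -1.35 (SE 0.266, adjusted p = 0.00567), lost without the first IDMB+TCDD array (adjusted p = 0.117). Myl9, a regulatory myosin light chain, was at the floor on both IDMB+TCDD arrays, against 1537, 1282 and 488 on the IDMB arrays, at least 6.88-fold lower (log2 -2.78, SE 0.546, adjusted p = 0.00567). Its call was narrowly missed without the second IDMB+TCDD array (adjusted p = 0.055) and lost with the floor at the 40th percentile (adjusted p = 0.164). Of 9 fibroblast and mesenchymal markers tested, 1 rose and 1 fell, where 3.06% and 3.53% of all probes did. Pdgfrb, a receptor for platelet-derived growth factor, rose with a log2 difference of 1.17 (SE 0.24, adjusted p = 0.00726). This call was lost without the second IDMB+TCDD array, where the difference was 1.08. The marker that fell, Thy1, is described below.

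In the extracellular matrix 3 of 35 tested genes rose and 4 fell, where 3.06% and 3.53% of all probes did, and the median log2 difference was -0.11. Among the called members were 2 nidogens and 2 laminin chains of the basement membrane, 1 of each higher and 1 lower. Nid2 had 7790.5 and 9544 with TCDD, against 2859.6, 3222 and 4134 without it and rose by 1.36 (SE 0.243, adjusted p = 0.00312), whereas its relative Nid1 had 549 and 598 with TCDD, against 5362, 3417 and 1269 without it and differed by -2.32 (SE 0.586, adjusted p = 0.0258). The laminin chain Lamb2 had 6258 and 5772 with TCDD, against 4386, 2288 and 2784 without it and rose by 0.99 (SE 0.26, adjusted p = 0.0316), whereas Lamb1 had 4006 and 6086 with TCDD, against 17391, 11951 and 8032 without it and differed by -1.26 (SE 0.294, adjusted p = 0.0162). Each of these 4 calls was lost when certain arrays were left out, with adjusted p up to 0.0592 for Nid2 (without the second IDMB+TCDD array), 0.191 for Lamb1 (without the first), 0.14 for Nid1 (without any but the third IDMB array) and 0.173 for Lamb2 (without any but the first IDMB array). Fbn2, a fibrillin of developing tissue, rose by 1.50 (SE 0.351, adjusted p = 0.0167), and Col6a3, a chain of collagen VI, and Fbln2, a fibulin, differed by -1.50 (SE 0.347, adjusted p = 0.016) and -1.06 (SE 0.227, adjusted p = 0.00959). Without the second IDMB+TCDD array none of these 3 passed (adjusted p up to 0.128, 0.128 and 0.114), and Fbn2 and Col6a3 did not pass without the first IDMB+TCDD or the second IDMB array. Of 7 genes of the plasminogen system and matrix proteases, 2 rose and none fell, where 3.06% and 3.53% of all probes did. Timp2, an inhibitor of metalloproteinases, and Plat, tissue plasminogen activator, rose by 1.33 (SE 0.35, adjusted p = 0.0316) and 1.34 (SE 0.314, adjusted p = 0.0172). Plat moved to 0.67 without the first IDMB+TCDD array and did not pass without it or the third IDMB array, and Timp2 did not pass without either IDMB+TCDD array or the first IDMB array (adjusted p up to 0.281 and 0.173).

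In the antioxidant list 2 of 25 genes rose and 2 fell, where 3.06% and 3.53% of all probes did. The list median was -0.007, near that of all probes. Besides Nqo1, Nfe2l2, which encodes NRF2 itself, rose by 0.82 (SE 0.211, adjusted p = 0.0284). Gclc, the catalytic subunit of the enzyme that limits glutathione synthesis, had 6238 and 3481 with TCDD, against 19024, 12394 and 7522 without it and differed by -1.38 (SE 0.37, adjusted p = 0.0351). Gsto1, a glutathione transferase, differed by -0.74 (SE 0.186, adjusted p = 0.0251). These 3 calls were lost in most fits with 1 array left out (adjusted p up to 0.183, 0.311 and 0.175). In the insulin and IGF list 1 of 16 tested genes rose and 2 fell, where 3.06% and 3.53% of all probes did. Hk2, the insulin-induced hexokinase, had 1232 and 873 with TCDD, against 3239, 3989 and 3301 without it. Its log2 difference was -1.75 (SE 0.279, adjusted p = 0.00127), past the test in each fit with 1 array left out. Igf2, a growth factor, rose by 1.59 (SE 0.399, adjusted p = 0.0247), and Igfbp3, which binds IGFs, differed by -1.93 (SE 0.532, adjusted p = 0.0395). Igf2 passed in 1 of 5 fits with 1 array left out and Igfbp3 in none (adjusted p up to 0.159 and 0.237). Of the other lists, single members were called, where 3.06% of all probes rose and 3.53% fell. Twist2 fell among 21 preadipocyte genes (-0.74, adjusted p = 0.0461), and Mcl1 rose among 23 EGF and MAPK responsive genes (0.96, adjusted p = 0.0272). Pdia6 rose among 22 genes of the ER chaperone list (0.75, adjusted p = 0.0426), and Actc1 fell among 6 skeletal muscle markers (-0.92, adjusted p = 0.00567). Each of these calls was lost without the second IDMB+TCDD array, and those other than Actc1 without further arrays too (adjusted p up to 0.256, 0.219, 0.193 and 0.118). A second Pdia6 probe rose by 1.19 (adjusted p = 0.00585), and another did not pass, at 0.24 (adjusted p = 0.486). Thy1, a marker of fibroblasts, differed by -2.22 (SE 0.634, adjusted p = 0.0471). It was -1.12 without the first IDMB+TCDD array and -3.31 without the second, and it passed without the second alone among the 5 fits that leave out 1 array.

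Together with Aldh3a1, the smallest adjusted p among the named genes belonged to a gene of none of the lists. Mapk6, an atypical MAP kinase (ERK3), had 2777 and 3193 on the IDMB+TCDD arrays, against 15836, 18317 and 12517 on the IDMB arrays. No array of one group came near the other, and the log2 difference was -2.37 (SE 0.182, adjusted p = 2.22e-06). Further genes fell by a like amount. Bcat1, a transaminase of branched-chain amino acids, had 342 and 406 with TCDD, against 2314, 2919.9 and 1525 without it, a log2 difference of -2.55 (SE 0.309, adjusted p = 0.000203). Plxna2, a semaphorin receptor, had 949.6 and 664 with TCDD, against 4141, 4660.5 and 5039.9 without it, a log2 difference of -2.53 (SE 0.299, adjusted p = 0.000203). Apcdd1, an inhibitor of WNT signals, had 1529 and 1361 with TCDD, against 5285, 12395 and 8214 without it, a log2 difference of -2.50 (SE 0.314, adjusted p = 0.000247). These 4 calls held in each fit with 1 array left out.

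Ctla2b, an inhibitor of cysteine proteases, had 1338 and 1014 with TCDD, against 28167, 14284 and 7135 without it and a log2 difference of -3.61 (SE 0.505, adjusted p = 0.00054); the near-identical Ctla2a may share its signal. The lysosomal membrane gene Gpr137b had 902 and 867 with TCDD, against 15275, 14109.5 and 3914 without it. Gpr137b and its pseudogene Gpr137b-ps, which may also share signal, differed by -3.42 (SE 0.601, adjusted p = 0.00283) and -2.84 (SE 0.472, adjusted p = 0.00177), and Gpr137b was at -4.05 without the third IDMB array. Gspt2, a translation termination factor, and Wdr55, a WD repeat protein of ribosome assembly, differed by -2.87 (SE 0.35, adjusted p = 0.000203) and -2.47 (SE 0.347, adjusted p = 0.00054), each with 1 IDMB+TCDD array at the floor. Atf3, a stress-induced transcription factor, differed by -2.59 (SE 0.422, adjusted p = 0.00156), or by -0.95 (adjusted p = 0.107) with the floor at the 40th percentile, with the first IDMB+TCDD array at the floor, and its second probe did not pass (log2 -0.93, adjusted p = 0.408).

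Tmem176a and Tmem176b, neighbouring genes of intracellular membrane proteins, had high signals. Tmem176a had 28870.3 and 22694 with TCDD, against 1839.6, 2361 and 8540.5 without it, and Tmem176b had 54919 and 43773 with TCDD, against 5787, 7716 and 27711 without it. Their log2 differences were 2.94 (SE 0.487, adjusted p = 0.00177) and 2.19 (SE 0.502, adjusted p = 0.0152). The third IDMB array was the highest of its group for both, and without it the differences were 3.62 and 2.88. Tmem176b was lost without either IDMB+TCDD array or the second IDMB array (adjusted p up to 0.121). Plscr2, a phospholipid scramblase, had 1058 and 1433 with TCDD, against 226, the floor and 355 without it and a log2 difference of 2.45 (SE 0.374, adjusted p = 0.00101). Pea15a, a regulator of ERK, had 3034 and 1642 with TCDD, against 396, 347 and 311 without it and a log2 difference of 2.67 (SE 0.508, adjusted p = 0.00464), lost without the first IDMB+TCDD array (adjusted p = 0.0782).

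The third IDMB array was also the highest of its group for 4 genes whose rise was large and variable. The matricellular protein Ccn3 had 11661 and 19136 with TCDD, against 635, 322 and 5427 without it and a log2 difference of 3.85 (SE 0.84, adjusted p = 0.0113). The small proteoglycan osteoglycin, Ogn, had 21422 and 74889.6 with TCDD, against 5165, 3190.5 and 14905 without it and differed by 2.68 (SE 0.633, adjusted p = 0.0176). Clec3b, the plasminogen-binding tetranectin, had 2579 and 5227 with TCDD, against 275, 748 and 1278 without it and differed by 2.52 (SE 0.578, adjusted p = 0.0154). Cacna1g, a T-type calcium channel, had 4894 and 3020.5 with TCDD, against 318, 619 and 1691 without it and differed by 2.47 (SE 0.591, adjusted p = 0.0192). Without that array the 4 differences were 5.05, 3.30, 3.02 and 3.11. Ccn3 and Cacna1g did not pass without either IDMB+TCDD array, and Ogn and Clec3b did not pass without the second (adjusted p up to 0.113, 0.163, 0.245 and 0.172). Cacna1g also did not pass without the first or second IDMB array, nor Ogn without the second. St6galnac6, a sialyltransferase, had 2578 and 866 with TCDD, against 254, 225 and 171 without it, a log2 difference of 2.81 (SE 0.634, adjusted p = 0.0141) that moved to 2.02 without the first IDMB+TCDD array and did not pass there (adjusted p = 0.215).

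Whether TCDD acted otherwise in the mix than outside it was asked by the difference between the 2 effects, which share no array. In TCDD against UT 548 probes (7.68%) were called, of which 277 (3.88%) were higher and 271 (3.8%) lower, and with each array scaled to the same median 175 were higher and 308 lower. The count of all calls was 114 without the second TCDD array, 136 without the first and 178 without the second UT array. The Gapdh ratio was 0.919 and 0.854 on the TCDD arrays and 1.25 to 1.52 on the UT arrays, with no overlap, and with it as a covariate 36 probes were called, 35 of them among the 548. The counts below are from the fit without it. Of the 218 probes that rose in the mix, 175 (80.3%) had the same sign in TCDD against UT, and of the 252 that fell, 215 (85.3%). Over all probes, 53.4% lay above 0 there and 46.6% below. Of the AhR target enzymes 6 of 7 were called higher without the mix, Cyp1a1 among them (2.21, adjusted p = 0.035), and the lipid droplet list had 1 of 21 lower, Fabp4 (-1.33, adjusted p = 0.0372).

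The difference of the effects passed the test for 27 probes (0.378%), 12 higher (0.168%) and 15 lower (0.21%) in the mix. The count was 7 without the first TCDD array, 16 without the second TCDD or the second UT array, 57 without the third IDMB array and 69 without the first. With the actin or the Gapdh ratio as a covariate it was 26 or 28, of which 25 or 26 were among the 27. Mapk6 differed most clearly, by -2.27 (SE 0.257, adjusted p = 0.00107), and in TCDD against UT it had 4528 and 4782 on the TCDD arrays, against 5217, 4614 and 5116 on the UT arrays. Pnpla2 differed by -1.79 (SE 0.268, adjusted p = 0.00678) and Plin2 by -1.81 (SE 0.312, adjusted p = 0.0142). Without the mix Pnpla2 had 2254 and 2589 on the TCDD arrays, against 2729, 2429 and 2884 on the UT arrays, and Plin2 had 13687 and 13211 on the TCDD arrays, against 10551, 19133 and 16950.3 on the UT arrays, and neither gene was called there. Cxcl12 differed by 1.90 (SE 0.296, adjusted p = 0.00812), with 58014 and 44148 on the TCDD arrays, against 62861, 75688 and 65358 on the UT arrays. The differences of Mapk6, Pnpla2 and Cxcl12 passed in 10 of 10 fits with 1 array left out, and that of Plin2 in 7 of 10.

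Tiparp showed the opposite pattern, a smaller TCDD effect in the mix, by -2.73 (SE 0.461, adjusted p = 0.014), past the test in 8 of 10 such fits. In TCDD against UT it had 12955 and 10937 on the TCDD arrays, against 1118, 562 and 844 on the UT arrays, a log2 difference of 3.88 (SE 0.326, adjusted p = 1.64e-05). With TCDD its intensity was thus of the same order in both settings, and the level without TCDD was higher in the mix. Fosl1, a FOS-related transcription factor, rose with TCDD outside the mix, by 2.85 (SE 0.403, adjusted p = 0.000943). In the mix it had 2133 and 1121 with TCDD, against 2110.5, 2895 and 3111 without it, with overlap. Its difference was -3.64 (SE 0.57, adjusted p = 0.00812) and passed in 9 of 10 such fits. Further genes with large differences were Bcat1 (-2.49), Wdr55 (-2.45) and Rrs1 (-2.23) below 0, and Lifr (1.85), Ackr3 (1.75), Hccs (1.72), Slc12a2 (1.45) and Marcks (1.37) above it. Of these, Wdr55, Lifr, Ackr3 and Hccs passed in 4 of 10, 2 of 10, 4 of 10 and 3 of 10 fits.

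**Figure D3:**
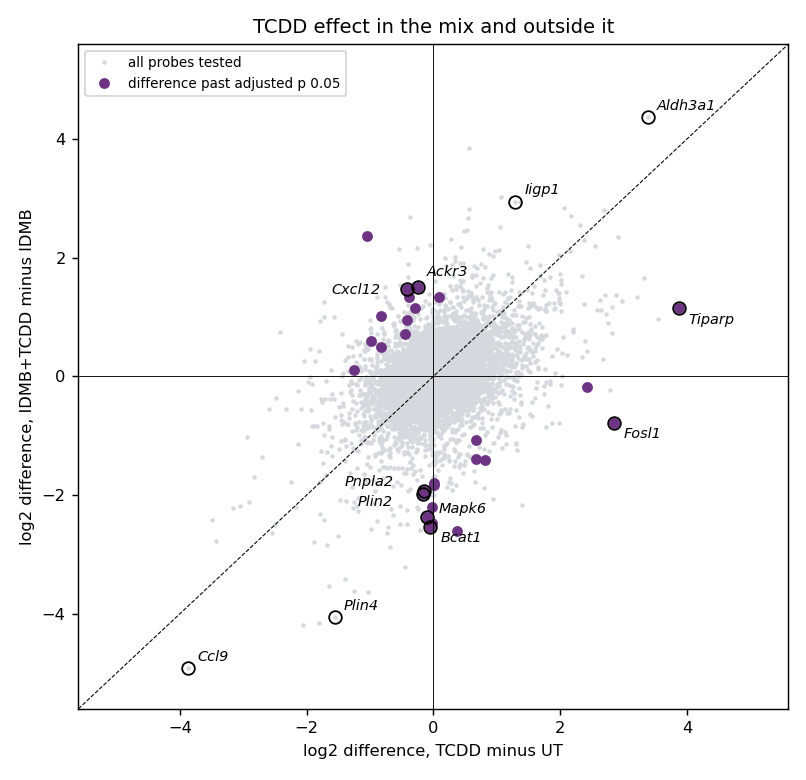
Log2 difference of IDMB+TCDD minus IDMB (vertical) against that of TCDD minus UT (horizontal), 1 point per probe tested, with the line of equal effects. Purple points are the 27 probes whose 2 effects differed at an adjusted p under 0.05, and 12 genes are named. Aldh3a1 and Ccl9 lie far out in the same direction on both axes, Pnpla2, Plin2, Mapk6 and Bcat1 lie far below 0 on the vertical axis alone, and Tiparp and Fosl1 lie far to the right.

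The same addition was made in the presence of EGF on 4 other arrays, where fewer probes passed (0.364%). In IDMB+EGF+TCDD against IDMB+EGF 16 probes (0.224%) were higher and 10 (0.14%) lower, and the count was 6 without the second IDMB+EGF+TCDD array and 13 without the first IDMB+EGF array. Both control ratios were higher with TCDD here, with no overlap. The actin ratio was 2.48 and 3.80 on the IDMB+EGF+TCDD arrays and 2.39 and 2.24 on the IDMB+EGF arrays, and the Gapdh ratio was 2.13 and 2.86 against 1.76 and 1.75. With the actin or the Gapdh ratio as a covariate 3 or 5 probes were called, so most calls with EGF were lost. Of the 16 higher, 12 (75%) were among the 218 that rose without EGF, which is 5.5% of those 218. Of the 10 lower, 2 were among the 252 that fell. Of the 218 probes that rose without EGF, 126 (57.8%) had the same sign with EGF, and of the 252 that fell, 142 (56.3%). Over all probes, 51.8% lay above 0 with EGF and 48.1% below. The median log2 difference with EGF was 0.07 for the 218 and -0.06 for the 252. Aldh3a1 had 58835 and 69748 on the IDMB+EGF+TCDD arrays, against 4129.5 and 1749 on the IDMB+EGF arrays, a log2 difference of 4.57 (SE 0.362, adjusted p = 6.76e-06). Plin2 had 14592 and 13097 on the IDMB+EGF+TCDD arrays, against 37424 and 45781 on the IDMB+EGF arrays, a log2 difference of -1.58 (SE 0.242, adjusted p = 0.00676). Cyp1b1, Adh7 and Ackr3 also rose, by 1.58, 2.06 and 1.54 (adjusted p = 0.00137, 0.0114 and 0.0116). Ifi47 was at the floor on both IDMB+EGF arrays and was at least 3.97-fold higher with TCDD (adjusted p = 0.0315). Plin4 was at the floor on both IDMB+EGF+TCDD arrays, at least 8.19-fold lower, and Ephx2 had a log2 difference of -2.45. Both were short of the test (adjusted p = 0.0674 and 0.0707).

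The effect of TCDD in the mix differed with and without EGF for 70 probes (0.981%), 42 higher (0.589%) and 28 lower (0.392%) with EGF. This count was the least stable of those given. It was 1 without the second IDMB+EGF+TCDD array and 22 without the first, 7 and 14 without the first or second IDMB+TCDD array, 10 and 45 without the first or second IDMB+EGF array, and 12 without the second IDMB array. With the actin ratio as a covariate 4 probes were called, and with the Gapdh ratio 1, so the gene differences that follow hold for the fit without these ratios. Cd24a, a small adhesion protein, differed by -2.44 (SE 0.269, adjusted p = 0.000753), the one difference named here that passed in 9 of 9 fits with 1 array left out. Without EGF it had 4974 and 3878 on the IDMB+TCDD arrays, against 2217, 1984 and 2226 on the IDMB arrays. With EGF it had 2841 and 2478 on the IDMB+EGF+TCDD arrays, against 7005 and 6977 on the IDMB+EGF arrays. It rose with TCDD in one setting (1.04) and fell in the other (-1.40). Mapk6 differed by 1.85 (SE 0.27, adjusted p = 0.00934), Acta2 by 1.83 (SE 0.289, adjusted p = 0.00951) and Mme, the membrane peptidase neprilysin, by -3.21 (SE 0.502, adjusted p = 0.00951). With EGF, Mapk6 had 2613 and 2481 on the IDMB+EGF+TCDD arrays, against 3044 and 4382 on the IDMB+EGF arrays. Acta2 had 3038 and 3474 on the IDMB+EGF+TCDD arrays, against 3287 and 2999.9 on the IDMB+EGF arrays. Both genes were lower on the IDMB+EGF arrays than on the IDMB arrays given above. Ccl9 differed by 2.89 (SE 0.637, adjusted p = 0.0433), which passed in 1 of 9 such fits, and had 2881 and 1570.5 on the IDMB+EGF+TCDD arrays, against 8624 and 8610.5 on the IDMB+EGF arrays.

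**Figure D4:**
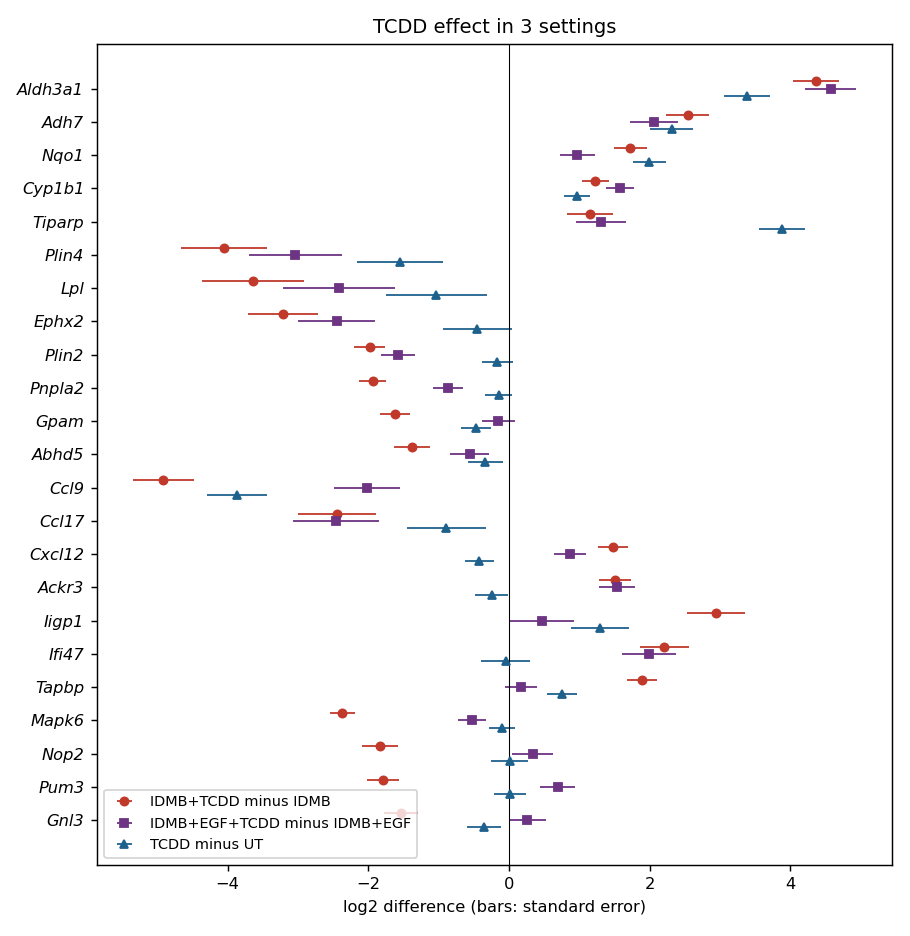
Log2 difference with its standard error for 23 genes in 3 settings: TCDD added to the mix, to the mix with EGF, and without the mix. Aldh3a1, Adh7 and Cyp1b1 lie above 0 in all 3. Plin2, Pnpla2 and Ephx2 lie further below 0 in both settings with the mix than without it, and Mapk6, Nop2, Pum3 and Gnl3 lie far below 0 in the mix without EGF alone.

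Genes that respond to the mix were also defined by the means of groups that this comparison does not use. In IDMB+EGF against EGF 394 probes (5.52%) were higher and 376 (5.27%) lower. Among the 394, 29 rose and 35 fell with TCDD in the mix (7.36% and 8.88%, median log2 difference 0.06). Among the 376, 19 rose and 27 fell (5.05% and 7.18%, median -0.05). Over all probes tested 3.06% rose and 3.53% fell, so larger shares of both sets were called in both directions. Both medians lay near that of all probes. The spread of each probe was estimated over all 18 arrays, so a probe with a small spread is more readily called in both comparisons. The sets are thus not independent of the calls, and a link between the responses to the mix and to TCDD was not tested by these shares.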

How the data were processed

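Expression was measured in C3H10T1/2 cells on 18 one-colour oligonucleotide arrays of 12488 probes in 8 groups, of which 5 arrays carry the main comparison. The deposited values are linear signal intensities, which the authors seem to have scaled, since the mean without the outer 2% of values is nearly alike on all arrays. The software and its settings are not given in the sources used here. Array medians differed by up to 1.18 times, and precision is limited by how few arrays a group has. A floor of 143.5 (20th percentile of the intensities) was applied and log2 values were taken from the deposited intensities. Each probe outside the 66 control probes was tested if its highest group mean reached 9.73, the median log2 value, and 7134 probes of 5438 genes passed. Of all probes 10855 had 1 gene symbol in the platform annotation, 396 had several and 1237 had none, and probes with several or none were not named.

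Group means were fitted over all 18 arrays with limma 3.58.1 in R 4.3.3 (eBayes with a variance trend, 10 residual and 6.03 prior degrees of freedom), and p-values were adjusted by Benjamini-Hochberg over all tested probes. A probe with an adjusted p under 0.05 is called. For a gene with several probes, the brightest one stands for it. Named are the 15 called genes with the largest difference in each direction whose arrays do not overlap, the 6 with the largest difference in each direction where 2 TCDD effects were compared, Plin4, Iigp1 and Ccl9, and members of the gene lists. The 34 lists and the rules were chosen with earlier results of these data known, and list counts carry no test. The alternatives were scaling to the median, quantile normalization, other floors, no filter, no trend, the compared groups alone, the replicate number as a block, the control-probe ratios as covariates, and each array left out.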

Additional observations from a re-analysis of the deposited data

Results flagged for a closer look

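The effect of TCDD differed with and without the mix, by a limma test of the difference itself, for 16 of the genes named here. Over all tested probes 0.378% passed this test. The 6 genes with the largest difference in each direction were named because they passed it, so the count of 16 is a description only. The differences of log2 effects (mix minus no mix) were above 0 for Cxcl12 (1.90), Lifr (1.85), Ackr3 (1.75), Hccs (1.72), Slc12a2 (1.45) and Marcks (1.37). They were below 0 for Fosl1 (-3.64), Tiparp (-2.73), Bcat1 (-2.49), Wdr55 (-2.45), Mapk6 (-2.27), Rrs1 (-2.23), Nop2 (-1.84), Plin2 (-1.81), Pum3 (-1.80) and Pnpla2 (-1.79). Those of Cxcl12, Mapk6 and Pnpla2 passed in 10 of 10 fits with 1 array left out. Of the others 6 passed in 4 or fewer, Ackr3, Pum3 and Wdr55 in 4, Hccs and Nop2 in 3 and Lifr in 2.

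The effect of TCDD in the mix differed with and without EGF for 27 of the named genes. Over all tested probes 0.981% passed this test. Here too the 6 genes with the largest difference in each direction were named because they passed it. The differences (with EGF minus without) were above 0 for Myl9 (3.73), Slc20a1 (3.71), Gpr137b-ps (3.22), Gja1 (2.91), Ccl9 (2.89), Saa3 (2.78), Gspt2 (2.51), Pum3 (2.48), Wdr55 (2.29), Bcat1 (2.26), Nop2 (2.17), Hk2 (1.87), Pno1 (1.86), Mapk6 (1.85), Acta2 (1.83), Gnl3 (1.80), Rrs1 (1.73) and Gpam (1.47). They were below 0 for Pea15a (-4.49), Snapc3 (-3.24), Mme (-3.21), Fbn2 (-2.46), Cd24a (-2.44), Pou6f1 (-2.34), Tapbp (-1.73), Slc12a2 (-1.65) and Marcks (-1.06). Cd24a passed in 9 of 9 fits with 1 array left out, Mapk6, Pum3 and Slc12a2 in 8 of 9, Acta2 and Mme in 7 and Pea15a in 6. The other 20 passed in 4 or fewer, Pou6f1 and Wdr55 in 0. Myl9 was at the floor on both IDMB+TCDD and both IDMB+EGF arrays, so with EGF it could not fall and its value is set by the floor. With the actin or the Gapdh ratio as a covariate 4 or 1 of the 70 probes were called. Of the genes not described above, Gja1 (a gap junction protein) and the phosphate transporter Slc20a1 fell with TCDD in the mix (-1.86 and -2.24, adjusted p = 0.0152 and 0.0174). Both calls were lost without the second IDMB+TCDD array, that of Gja1 also without the second and that of Slc20a1 without the first IDMB array (adjusted p up to 0.183 and 0.216), and without the arrays in turn Slc20a1 ranged over -2.89 to -1.59.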

How the results depend on the processing

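For IDMB+TCDD against IDMB 470 probes were called, 140 with the 5 arrays of these groups alone, 267 with the Gapdh ratio as a covariate and 151 to 508 with 1 array left out. For TCDD against UT 548 were called, 338 with no filter, 112 with these groups alone, 36 with the Gapdh ratio and 114 to 640 with 1 array left out. For IDMB+EGF+TCDD against IDMB+EGF 26 were called, 11 with these groups alone, 3 and 5 with the actin and Gapdh ratios and 6 to 23 with 1 array left out. The difference with and without the mix had 27 calls, 49 with the floor at the 40th percentile, 2 with these groups alone, 52 with the replicate block and 7 to 69 with 1 array left out. The difference with and without EGF had 70 calls, 38 with median scaling, 27 with no filter, 33 with no variance trend, 2 with these groups alone, 162 with the replicate block, 4 and 1 with the actin and Gapdh ratios and 1 to 79 with 1 array left out. With the replicate block IDMB+TCDD against IDMB had 647 calls (433 of the 470 among them) and TCDD against UT had 816. Correlations were taken between same-numbered arrays, on deviations from the group means. They were 0.02 and 0.01 in the first of these comparisons and 0.16 and 0.07 in the second. Whether the numbers pair the arrays cannot be told from these values, and the block raised the count in both comparisons. The correlation of -0.10 with EGF led, after the data were seen, to a fit with crossed numbers, which called 40. Cebpa (-0.16) was 0.24 with the replicate block, 0.06 without the first IDMB+TCDD array, and from -0.56 to 0.14 with 1 array left out, the higher end without the third IDMB array. Of the 91 named genes called in IDMB+TCDD against IDMB, 41 kept their call whichever array was left out and 44 kept it under every other alternative, and no called gene changed sign. The cause of these changes was not tested, beyond the smaller number of arrays where arrays were left out.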

Other observations

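Many genes of ribosome assembly were lower with TCDD in the mix. The list was made after its members' values had been seen, so its counts are a description with no test. Of 63 tested members 14 fell and none rose, 56 lay below 0 and the median log2 difference was -0.53, beside 3.53% of all probes that fell and a median of -0.01. Pum3, an RNA-binding protein of large-subunit assembly, had 3206 and 3431 on the IDMB+TCDD arrays, against 13696, 12906 and 8516 on the IDMB arrays, a log2 difference of -1.79 (SE 0.228, adjusted p = 0.000261). Nop2, a methyltransferase of ribosomal RNA, had 883 and 1276 with TCDD, against 3327, 4400.0 and 3696 without it, a log2 difference of -1.83 (SE 0.261, adjusted p = 0.000558). Gnl3 (nucleostemin) had 1746 and 2429 with TCDD, against 6125, 6912 and 5067 without it, a log2 difference of -1.54 (SE 0.241, adjusted p = 0.00114). Pno1 and Rrs1, assembly factors of the small and the large subunit, differed by -1.54 (SE 0.242, adjusted p = 0.00119) and -1.42 (SE 0.234, adjusted p = 0.00177). The groups did not overlap for any of these 5 genes, and their calls held in each fit with 1 array left out. Bysl, also a gene of ribosome assembly, differed by -1.44 (adjusted p = 0.00427). Its call was lost without the first IDMB+TCDD array, where the difference was -1.28. Without the mix, in TCDD against UT, 3 of the 63 were called higher and 3 lower, and the median was 0.08. Of all probes 3.88% and 3.8% were called there. In IDMB+EGF+TCDD against IDMB+EGF none of the 63 was called, and the median was 0.10. In IDMB against UT, which shares the IDMB arrays, 18 were called higher, where 6.66% of all probes were.

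A list of glycolytic genes was also made after the values had been seen. Of its 16 tested members 3 fell and 1 rose, where 3.53% and 3.06% of all probes did. Of the 16, 15 lay below 0, with a median of -0.72. Ldhb, a lactate dehydrogenase subunit, had 2894 and 2964 with TCDD, against 12292, 16491 and 8647 without it, a log2 difference of -2.04 (SE 0.299, adjusted p = 0.000723). Pgk1, phosphoglycerate kinase, had 21018 and 17540.4 with TCDD, against 50894, 55372 and 49462 without it, a log2 difference of -1.43 (SE 0.206, adjusted p = 0.000613). Hk2 is described above, and Pfkm, the muscle phosphofructokinase, rose by 0.91 (SE 0.196, adjusted p = 0.0105). Of these, Ldhb, Pgk1 and Hk2 were called in each fit with 1 array left out, and Pfkm did not pass without the second IDMB+TCDD array (adjusted p = 0.135). Without the mix 5 of the 16 were called lower and 1 higher, where 3.8% and 3.88% of all probes were, with a median of -0.83.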
